A study of Mus musculus with 6 samples.

Results

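The glycolysis enzymes described here are 10 genes of 54532 in the deposited expression files: the glucose transporter gene Slc2a1, the enzyme genes Hk2, Pfkl, Aldoa, Tpi1, Gapdh, Pgk1, Eno1 and Pkm, and Ldha. They were chosen by gene symbol from the known pathway and not by a rule on their values, although earlier results of these data were known. The symbols matched 11 Ensembl identifiers, because a pair of them carries the symbol Aldoa. The identifier that holds nearly all Aldoa reads was used, and the other one had between 4 and 42 reads in each library.

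RNA of sorted mouse cells was sequenced in 6 libraries, 1 for each condition, so no difference between 2 libraries has a replicate check and none was tested on its own. WT mice were C57BL/6 mice without leukemia. MA9 mice were C57BL/6 mice transplanted with GFP+ leukemia cells, made by transduction of c-kit+ BM cells with the MSCV-MLL-AF9-GFP retrovirus, as a model of acute myeloid leukemia (AML). FE marks mice that were loaded with iron by repeated intraperitoneal injections of iron dextran, written below as "with iron", and the mice without FE received PBS. There were 4 macrophage libraries (WT, MA9, and each of them with iron) and 2 libraries of leukemia cells (MA9, without and with iron). For the macrophages the sample labels name the spleen, whereas the methods of the study describe a sort from the BM (GFP-, Gr-1 low, F4/80+, CD115 intermediate, low to intermediate side scatter), and for the leukemia cells the labels name the BM. Kind of cell, organ and sorting gate therefore cannot be told apart between leukemia cells and macrophages. How many mice gave the cells of a library is not given in the sources used here.

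Glycolysis splits glucose into pyruvate in the cytosol and yields ATP and NADH without oxygen. Glucose enters through transporters such as GLUT1, is trapped by hexokinase, is committed by phosphofructokinase, and is cleaved and oxidised in the later steps, after which lactate dehydrogenase returns NAD+ by turning pyruvate into lactate. Dividing and leukemic cells are known for high glycolytic flux, activated macrophages also shift toward it, and hypoxia-inducible factor 1 (HIF-1) and Myc are well known transcriptional activators of the pathway. The messenger RNA level of an enzyme is not its activity, and flux was not measured.

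Levels are given in FPKM, read fragments per kilobase of exon scaled to the fragments counted in the library, so that genes of different length can be compared. FPKM multiplied by exon length gave whole reads for all 10 genes in all 6 libraries, and the recovered depth was between 16085347 and 19518360 reads. The identity of the cells was checked with marker lists. All 17 macrophage markers were above 0 in every library, and their summed level was between 561.5 and 1241 FPKM in the 4 macrophage libraries and 247.9 and 257.5 FPKM in the leukemia cells. The 12 B cell markers summed to between 1380 and 2436 FPKM in the macrophage libraries, above the macrophage markers in each of them, and to 24.9 and 23.3 FPKM in the leukemia cells. The 14 markers of MLL-AF9 leukemia and progenitors summed to 4761 and 4185 FPKM in the leukemia cells and to between 80.3 and 235.5 FPKM in the macrophage libraries. In bulk libraries of this kind, a lower share of one kind of cell and less RNA of a gene per cell cannot be told apart.

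The promoters of Ldha, Pgk1 and Slc2a1 are shown because HIF-1 binds the short core ACGTG and Myc the E-box CACGTG, and because the Ldha promoter had most matches while Pgk1 and Slc2a1 stand for a gene that was higher in leukemia cells and for the one that differed least between kinds of cell. Each stretch runs from 250 bases before to 50 bases after a RefSeq transcription start (build GRCm38.p6) and is written 5′ to 3′ on the plus strand, the strand of all 3 genes. Capitals mark matches to ACGTG or to its reverse complement CACGT, with overlapping matches merged. The Ldha stretch (the first of 2 start sites) is at chr7:46845554-46845853, the Pgk1 stretch at chrX:106186850-106187149, and the Slc2a1 stretch at chr4:119108495-119108794.
Ldha: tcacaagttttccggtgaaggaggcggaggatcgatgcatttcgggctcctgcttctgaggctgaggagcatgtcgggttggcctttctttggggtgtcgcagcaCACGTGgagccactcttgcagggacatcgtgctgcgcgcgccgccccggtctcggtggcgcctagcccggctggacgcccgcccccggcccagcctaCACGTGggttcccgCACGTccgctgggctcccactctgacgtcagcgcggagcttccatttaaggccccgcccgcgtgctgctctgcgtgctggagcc
Pgk1: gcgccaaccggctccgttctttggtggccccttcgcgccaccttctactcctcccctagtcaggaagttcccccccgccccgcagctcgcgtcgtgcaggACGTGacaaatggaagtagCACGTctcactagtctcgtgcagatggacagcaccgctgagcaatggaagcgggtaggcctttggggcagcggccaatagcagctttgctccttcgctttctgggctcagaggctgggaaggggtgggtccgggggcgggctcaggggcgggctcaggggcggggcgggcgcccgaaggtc
Slc2a1: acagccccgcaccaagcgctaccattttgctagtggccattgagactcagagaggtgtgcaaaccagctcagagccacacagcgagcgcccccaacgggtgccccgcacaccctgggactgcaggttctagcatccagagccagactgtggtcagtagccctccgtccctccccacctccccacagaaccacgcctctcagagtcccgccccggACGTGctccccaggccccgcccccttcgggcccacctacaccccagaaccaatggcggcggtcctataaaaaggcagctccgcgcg
The Ldha stretch holds 5 matches to ACGTG counted on both strands, the Pgk1 stretch 2 and the Slc2a1 stretch 1. All 10 genes had a promoter in the RefSeq table, with 16 start sites in all, and ACGTG was present at 8 of the 16 start sites (7 genes), against 19.6% of 32851 promoters of the same length. CACGTG, which contains ACGTG, was present at 1 start site (Ldha) and in 7.15% of all promoters, and GCGTG, the other common HIF core, at 8 start sites (5 genes) and in 32.4%. The start sites of the 10 genes had between 52.7% and 69.0% G and C, against a median of 52.7% for all promoters. A match is a description of the letters in the window, several start sites of one gene overlap, and binding was not measured.

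The 10 genes took up a small part of each library, and that part was larger in the leukemia cells. They held 0.147% of the reads in WT macrophages (0.137% with iron), 0.210% in MA9 macrophages (0.212% with iron) and 0.477% in leukemia cells (0.486% with iron). The 95% Wilson intervals, which cover counting error only, ran from 0.145% to 0.148% in WT macrophages, from 0.208% to 0.212% in MA9 macrophages and from 0.474% to 0.481% in MA9 leukemia cells. Leukemia cells were above every macrophage library on this measure, both MA9 macrophage libraries were above both WT libraries, and the intervals of the MA9 macrophage libraries overlapped. In MA9 macrophages with iron, the reads recovered over all genes summed to 17492110, above the depth of 16085347 that served as the total. With that sum as the total the share of this library would be lower, so the overlap depends on the total taken.

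Among the 10 genes, Slc2a1, Hk2 and Pfkl of the first steps were in each library below the genes of later steps other than Gapdh. Slc2a1 (ENSMUSG00000028645, chr4:119108711-119137983), which encodes the glucose transporter GLUT1, was at 12.5 FPKM in WT macrophages (13.0 with iron), 9.71 in MA9 macrophages (13.0 with iron) and 11.4 in leukemia cells (11.1 with iron). Slc2a1 had the narrowest range of the 10 genes, 1.34-fold from the lowest to the highest library, and the leukemia cells lay inside the range of the macrophages. Hk2 (ENSMUSG00000000628, chr6:82725025-82774454), hexokinase 2, was at 8.74 FPKM in WT macrophages (9.03 with iron), 10.4 in MA9 macrophages (8.11 with iron) and 24.7 in leukemia cells (22.8 with iron). Pfkl (ENSMUSG00000020277, chr10:77986947-78010083), the liver-type phosphofructokinase of the committing step, was at 11.2 FPKM in WT macrophages (10.95 with iron), 11.97 in MA9 macrophages (11.7 with iron) and 23.6 in leukemia cells (24.6 with iron). For Hk2 and Pfkl the 4 macrophage libraries were close together and both leukemia libraries were above them.

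Apart from Gapdh, genes of the later steps were abundant, ranking between place 125 and place 2260 of all genes by FPKM. Aldoa (ENSMUSG00000030695, chr7:126795234-126800751), the aldolase that cleaves the sugar into triose phosphates, was at 81.8 FPKM in WT macrophages (80.5 with iron), 97.1 in MA9 macrophages (119.7 with iron) and 269.9 in leukemia cells (277.9 with iron). Tpi1 (ENSMUSG00000023456, chr6:124810586-124814296), triosephosphate isomerase, was at 25.9 FPKM in WT macrophages (24.5 with iron), 51.8 in MA9 macrophages (48.0 with iron) and 125.4 in leukemia cells (127.9 with iron). Its levels formed 3 steps, WT below MA9 macrophages and these below leukemia cells, with the iron-loaded library of each beside its partner. Pgk1 (ENSMUSG00000062070, chrX:106187100-106203699), phosphoglycerate kinase of the first ATP-forming step, showed the same order, at 48.4 FPKM in WT macrophages (41.5 with iron), 85.6 in MA9 macrophages (83.7 with iron) and 176.8 in leukemia cells (175.7 with iron).

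Eno1, Pkm and Ldha close the pathway. Eno1 (ENSMUSG00000063524, chr4:150236721-150248879), enolase 1, was at 53.1 FPKM in WT macrophages (48.5 with iron), 71.4 in MA9 macrophages (77.2 with iron) and 156.9 in leukemia cells (165.6 with iron). Pkm (ENSMUSG00000032294, chr9:59656368-59679375), the pyruvate kinase of most tissues outside liver and red cells, was at 65.0 FPKM in WT macrophages (64.5 with iron), 104.4 in MA9 macrophages (94.2 with iron) and 291.1 in leukemia cells (276.1 with iron). Ldha (ENSMUSG00000063229, chr7:46841475-46855627), lactate dehydrogenase A, was at 76.1 FPKM in WT macrophages (62.4 with iron), 115.9 in MA9 macrophages (112.9 with iron) and 167.7 in leukemia cells (168.9 with iron). For all 3 genes both MA9 macrophage libraries were above both WT libraries, and both leukemia libraries were above all macrophages. Alternative splicing makes the M1 and M2 forms of Pkm, and gene-level values do not tell them apart. Pkm also shares 767 exon bases on its own strand with the unconfirmed gene Gm49759, which was at 3.05 to 16.5 FPKM.

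**Figure D1:**
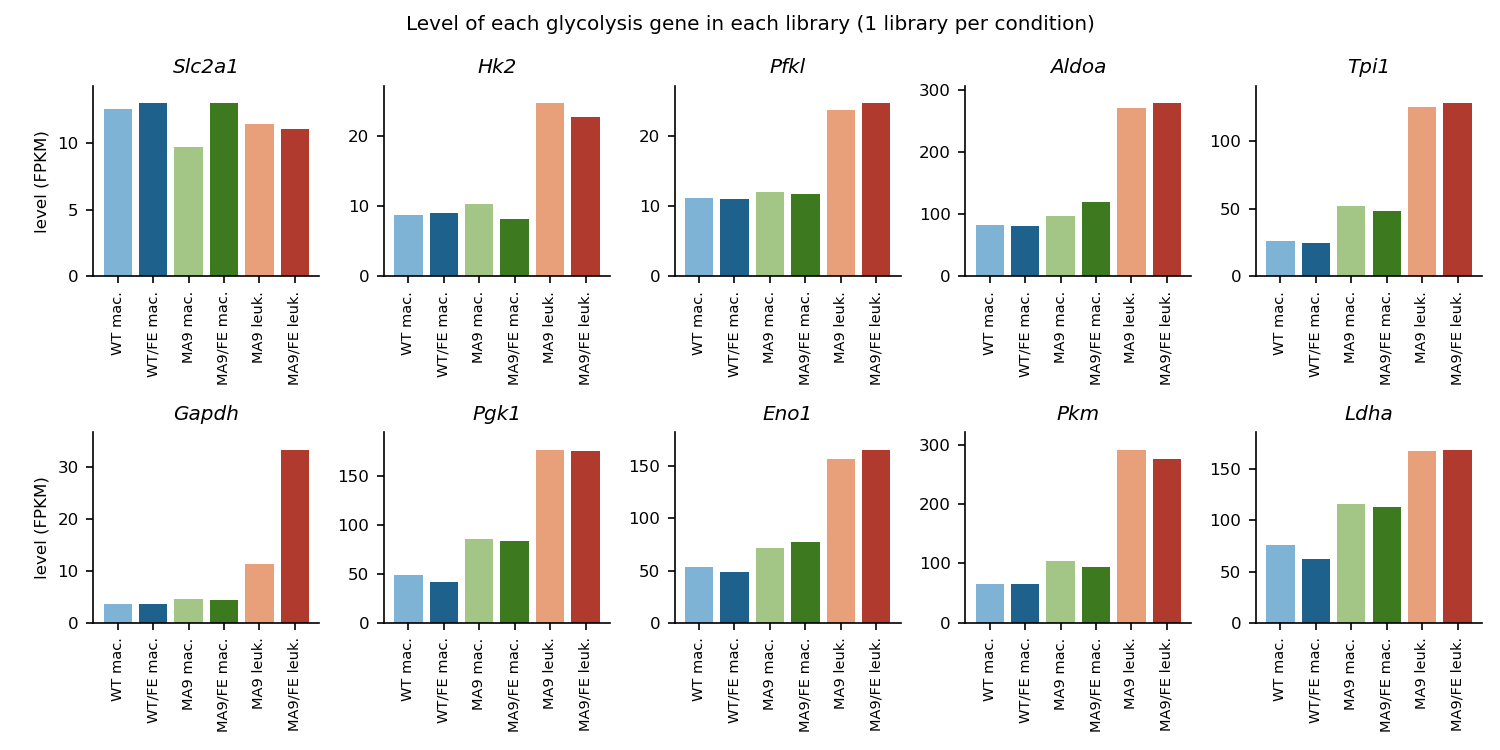
Level of each of the 10 genes in FPKM (vertical axes start at 0 and differ between genes) in the 6 libraries, 1 bar for each library. Slc2a1 stays between 9.71 and 13.0 FPKM, the other 9 genes are highest in the leukemia cells, and Gapdh alone is set apart between the leukemia libraries (11.3 and 33.2 FPKM).

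Gapdh (ENSMUSG00000057666, chr6:125161715-125166467), glyceraldehyde-3-phosphate dehydrogenase, behaved unlike the others, and its values are uncertain. It was at 3.51 FPKM in WT macrophages (3.56 with iron), 4.54 in MA9 macrophages (4.38 with iron) and 11.3 in leukemia cells (33.2 with iron), from 283, 247, 319, 291, 845 and 2451 reads in that order. This was far below Aldoa and Pgk1, on either side of it in the pathway, although Gapdh is generally an abundant transcript. The mouse annotation holds 74 other genes with at least 95% identity over at least 50% of the Gapdh coding part, and 85.8% of the 100-base windows of a Gapdh transcript occur unchanged in other genes. Summed over these 74 copies the level was 9.25 FPKM in WT macrophages (9.67 with iron), 15.4 in MA9 macrophages (15.2 with iron) and 37.1 in leukemia cells (39.4 with iron), above Gapdh itself in every library. Reads that match several genes can be split or dropped in counting, and their part in the level of Gapdh was not tested. Pgk1 and Eno1 also share 67.0% and 59.0% of such windows with other genes, yet their own copies summed to at most 0.720% and 12.1% of the level of the gene. Pkm shares 9.82% of its windows, Ldha 1.28% and Tpi1 0.796%, and Slc2a1, Hk2, Pfkl and Aldoa share 0%.

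Gapdh was also the reference gene of the real-time PCR of the study, so its primers are shown, with no part in capitals.
Gapdh forward: cacttgaagggtggagc
Gapdh reverse: gggctaagcagttggtg
The forward primer matched bases 417 to 433 and the reverse primer, on the opposite strand, bases 545 to 561 of a Gapdh transcript of 1273 bases (GENCODE M21). Both were also found without a mismatch in 73 other annotated genes.

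Iron-loaded and control libraries were compared first, within WT macrophages, MA9 macrophages and leukemia cells. In the macrophages the 10 genes differed little. Genes with 10 or more reads in either library were counted when they differed by 2-fold or more in log2(FPKM + 1) once the pair had been scaled by TMM (trimmed mean of M values). This limit was reached by 0 of 10 genes in WT macrophages with against without iron (background 1.23% of 16632 genes) and by 0 of 10 in MA9 macrophages (background 2.44% of 16335). The median log2 difference of the 10 genes was -0.03 and 0.00 in these pairs, against -0.02 and 0.02 over all genes. In leukemia cells with against without iron it was reached by 1 of 10 genes, Gapdh (background 0.812% of 15278), with a median of 0.02 for the 10 genes and 0.00 for all genes.

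Small differences between these libraries stood outside counting error for single genes. Ratios from here on are of scaled FPKM without a pseudocount, each with the 95% interval that counting error alone gives, and spread between mice is not in these intervals. In WT macrophages with iron, Ldha was 0.816-fold (0.781 to 0.852), Pgk1 0.854-fold (0.800 to 0.912) and Eno1 0.908-fold (0.873 to 0.945) of its level without iron. In MA9 macrophages with iron, Slc2a1 was 1.37-fold (1.23 to 1.53), Aldoa 1.26-fold (1.22 to 1.31) and Hk2 0.803-fold (0.731 to 0.882). None of the 10 genes lay outside counting error in the same direction in all 3 pairs. Hk2 and Pkm were lower and Aldoa and Eno1 higher with iron in both MA9 macrophages and leukemia cells, beyond counting error and by at most 1.26-fold.

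Other genes moved with iron in the same pairs. Summed macrophage markers were at 569.6 FPKM in WT macrophages (966.3 with iron) and at 561.5 in MA9 macrophages (1241 with iron), and all 17 had a log2 difference above 0 in both pairs. In MA9 macrophages the summed neutrophil markers were at 1825 FPKM (926.8 with iron) and the proliferation genes at 687.4 (478.8 with iron), and in leukemia cells the erythroid markers were at 451.6 (175.9 with iron). The B cell markers were at 1380 FPKM in MA9 macrophages (2369 with iron), where all 12 had a log2 difference above 0 (median 0.57), and in WT macrophages all 12 T and NK cell markers were lower with iron (median -0.45). The part of these genes' cells in the glycolysis values was not tested.

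In leukemia cells Gapdh was 2.95-fold higher with iron (2.73 to 3.19), and the other 9 genes were between 0.921-fold (Hk2) and 1.05-fold (Eno1). The copies of Gapdh were at 37.1 FPKM without and 39.4 with iron. Relative to 12 reference genes, among them Actb, B2m, Ppia, Hprt and Tbp, the level of Gapdh was between 2.50 and 5.42 times as high with iron as without. The highest of these ratios was that to Tfrc, the transferrin receptor, whose transcript is known to be controlled by iron. In the macrophages the same ratios were between 0.976 and 1.31 in WT and between 0.658 and 1.49 in MA9 mice. The ratios of Aldoa, Pgk1, Pkm and Tpi1 to Gapdh were 0.321 to 0.349 times as high in leukemia cells with iron as without. The exons of Gapdh also overlap those of Iffo1 on the opposite strand by 68 bases, and Iffo1 was at 26.9 FPKM in leukemia cells (26.0 with iron).

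**Figure D2:**
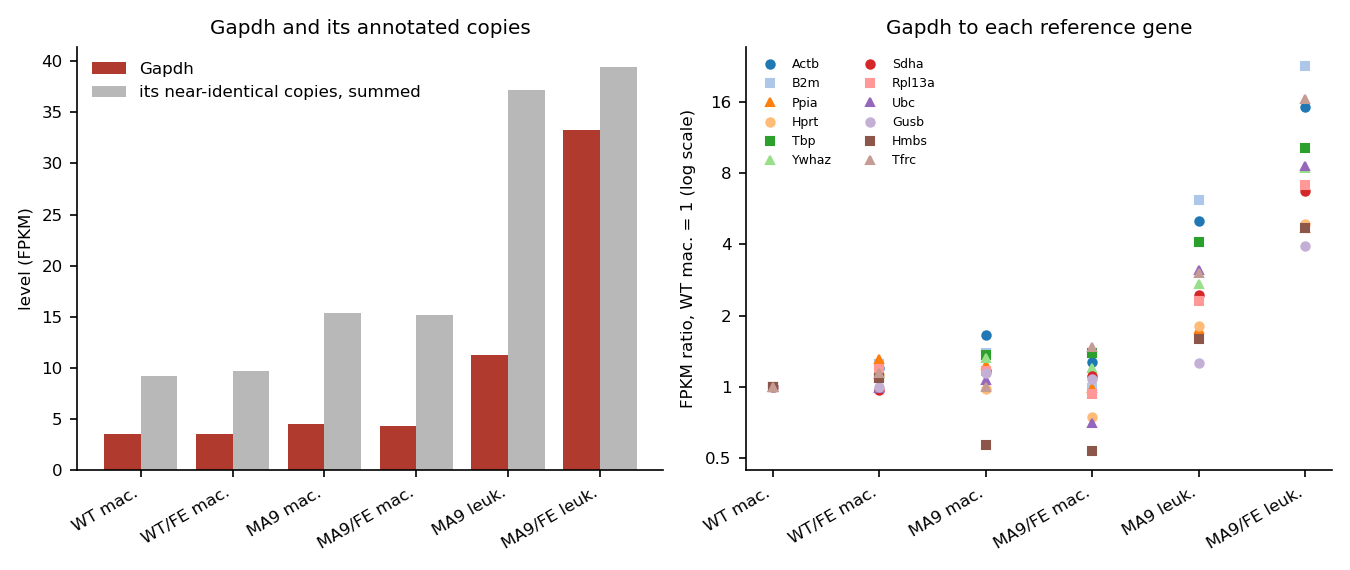
Left, level in FPKM of Gapdh and summed level of its 74 near-identical copies in each library. Right, FPKM ratio of Gapdh to each of 12 reference genes, set to 1 in WT macrophages (log scale). Gapdh differs between the leukemia libraries (11.3 and 33.2 FPKM) while its copies differ little (37.1 and 39.4), and all 12 ratios are higher in leukemia cells with iron than without.

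To use all 6 libraries at once, an additive model of iron and cell state was fitted with limma. Its residual spread is the disagreement between the 3 iron pairs, not the spread between mice, and the MA9 macrophages serve in both of its contrasts between cells. For iron, limma called 0 of 16994 genes at an adjusted p of 0.05 or less (604 at an unadjusted p under 0.05), and 0 of the 10 glycolysis genes (background 0%). The adjusted p-values of the 10 genes were between 0.992 and 0.998, and 0 of them had an unadjusted p under 0.05. The log2 difference for iron in limma was 0.48 (SE 0.32) for Gapdh, the largest of the 10, and between -0.13 and 0.13 for the other 9.

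MA9 macrophages were compared with WT macrophages to describe the macrophages of leukemic mice, without and with iron. Enzymes of the later steps were higher in MA9 macrophages in both pairs, whereas Slc2a1, Hk2 and Pfkl differed by at most 1.28-fold in either direction. Without iron 0 of 10 genes were past 2-fold (background 4.69% of 16810), and with iron 1 of 10, Pgk1 (background 4.57% of 16403). Pgk1 was under 2-fold in this pair with FPKM as deposited, with scaling by median of ratios and with the trend on exon length removed (log2 0.86). Over all genes, log2 differences fell with exon length in this pair and in MA9 macrophages with against without iron (Spearman rho -0.29 in each). The rho of MA9 against WT macrophages without iron was 0.07. In the pair with iron, removal of the trend took Tpi1 from log2 0.96 to 0.83, Ldha from 0.87 to 0.77 and Aldoa from 0.59 to 0.47. Eno1 went from 0.68 to 0.70 and Pkm stayed at 0.56. At a fold of 1.5 there were 4 of 10 genes without iron and 5 of 10 with iron, all higher in MA9 mice. The background was 13% without and 17.6% with iron in either direction, and 8.56% and 11.4% as higher. The median log2 difference of the 10 genes was 0.37 without and 0.57 with iron, against -0.01 and 0.02 over all genes.

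Tpi1 was 2.02-fold higher (1.89 to 2.16) without iron, just under the limit in log2(FPKM + 1) at 0.98, and 1.98-fold (1.84 to 2.13) with iron. Pgk1 was 1.79-fold (1.69 to 1.89) and 2.05-fold (1.93 to 2.18) higher. Tpi1 and Pgk1, whose steps lie on either side of Gapdh, had the highest ratios of the 10 genes in both pairs. Pkm was 1.62-fold higher without and 1.48-fold with iron, Ldha 1.54-fold and 1.84-fold, Eno1 1.36-fold and 1.62-fold, and Aldoa 1.20-fold and 1.51-fold, and all of these counting intervals lay above 1. Gapdh was 1.31-fold (1.11 to 1.54) and 1.25-fold (1.05 to 1.49) higher. Slc2a1 was 0.782-fold (0.702 to 0.870) without and 1.01-fold (0.915 to 1.12) with iron, and Hk2 was 1.20-fold (1.096 to 1.31) and 0.912-fold (0.828 to 1.01).

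In limma, 204 of 16994 genes were called between MA9 and WT macrophages (background 1.2%, and 1.15% as higher), and 1 of the 10 genes, Tpi1, was called as higher (log2 0.98, SE 0.11, adjusted p = 0.043). Pgk1 (log2 0.93, adjusted p = 0.054), Ldha (log2 0.75, adjusted p = 0.085) and Pkm (log2 0.63, adjusted p = 0.098) missed the threshold in limma. An unadjusted p under 0.05 was found in limma for 6 of the 10 genes and for 3510 of all 16994 genes. Tpi1 was not called in limma when the leukemia cell pair was left out (adjusted p = 0.076) or with no minimum of reads (adjusted p = 0.16, and 1 gene called in all), with the same log2 difference.

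Markers of other cells moved with this comparison. Of 18 proliferation genes, 17 were past 2-fold in favour of MA9 over WT macrophages (9 with iron), and their summed level was 239.0 FPKM in WT (221.9 with iron) against 687.4 in MA9 macrophages (478.8 with iron). The 15 neutrophil markers summed to 15.7 FPKM in WT (17.7 with iron) and to 1825 in MA9 macrophages (926.8 with iron), with 4 of them at 0 in each WT library and none at 0 in the MA9 libraries. The 12 erythroid markers summed to 121.0 FPKM in WT (230.4 with iron) and to 330.4 in MA9 macrophages (537.8 with iron). The leukemia and progenitor markers summed to 86.2 FPKM in WT (80.3 with iron) and to 235.5 in MA9 macrophages (145.6 with iron). B cell markers went the other way without iron, where all 12 were lower in MA9 macrophages (median log2 -0.64). Their sum was 2436 FPKM in WT (2290 with iron) and 1380 in MA9 macrophages (2369 with iron), and with iron 7 of 12 were lower (median -0.21). Of 12 T and NK cell markers, 1 was past 2-fold higher in MA9 macrophages without iron and 5 with iron. The part of these cells in the glycolysis values was not tested.

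Leukemia cells differed from the macrophages of leukemic mice in most of the pathway. Without iron 7 of 10 genes (Hk2, Aldoa, Tpi1, Gapdh, Pgk1, Eno1 and Pkm) were past 2-fold higher in leukemia cells and 0 lower (background 7.41% higher and 12.7% lower of 16886 genes, 20.1% in either direction). With iron the same 7 genes were past 2-fold higher and 0 lower (background 9.58% higher and 13.3% lower of 16699, 22.9% in either direction). Among genes at 10 FPKM or more in one library, these shares were 10.5% higher and 15.2% lower without iron, and 12.9% and 16.3% with iron. The median log2 difference of the 10 genes was 1.11 without and 1.12 with iron, against -0.01 and -0.03 over all genes. The MA9 macrophage libraries stand in this comparison as well as in that with WT macrophages, so the values of both comparisons share them.

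Pkm was 2.73-fold higher (2.66 to 2.79) without iron and 2.87-fold (2.80 to 2.95) with iron. Aldoa was 2.72-fold (2.63 to 2.81) and 2.28-fold (2.21 to 2.35), Tpi1 2.37-fold (2.26 to 2.48) and 2.62-fold (2.49 to 2.75), and Hk2 2.33-fold (2.17 to 2.51) and 2.75-fold (2.54 to 2.99) higher. Eno1 and Pgk1 were close to the limit, at 2.15-fold and 2.10-fold for Eno1 and 2.02-fold and 2.06-fold for Pgk1. Gapdh was 2.43-fold higher (2.13 to 2.77) without and 7.44-fold (6.59 to 8.43) with iron. Pfkl was just under the limit in log2(FPKM + 1), at 0.90 and 0.98, with ratios of 1.93 and 2.06. Of the chosen glycolysis genes, Ldha and Slc2a1 differed least. Ldha was 1.41-fold (1.37 to 1.46) and 1.47-fold (1.42 to 1.51) and Slc2a1 1.15-fold (1.03 to 1.29) and 0.836-fold (0.753 to 0.929). This holds for these genes only, since some other genes of glucose and lactate transport, among them Slc2a3 and Slc16a3, differed more.

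In limma, 9 of the 10 genes, all but Slc2a1, were called as higher in leukemia cells than in MA9 macrophages (background 20.6% of 16994 genes called higher, 43.8% in either direction). The limma log2 differences of the 9 genes were between 0.54 (Ldha, SE 0.15, adjusted p = 0.035) and 1.90 (Gapdh, SE 0.39, adjusted p = 0.015), and the lowest adjusted p in limma was that of Tpi1 (log2 1.31, SE 0.11, adjusted p = 0.00074). Slc2a1 had a limma log2 difference of -0.01 (SE 0.15, adjusted p = 0.96). Without the WT pair in the limma fit, Ldha was not called (adjusted p = 0.074). Proliferation genes moved in the same direction, with 16 of 18 called higher in limma and summed levels of 1212 FPKM in leukemia cells (1214 with iron), and all 12 B cell markers and 13 of 17 macrophage markers were called lower. Their part in the glycolysis values was not tested.

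**Figure D3:**
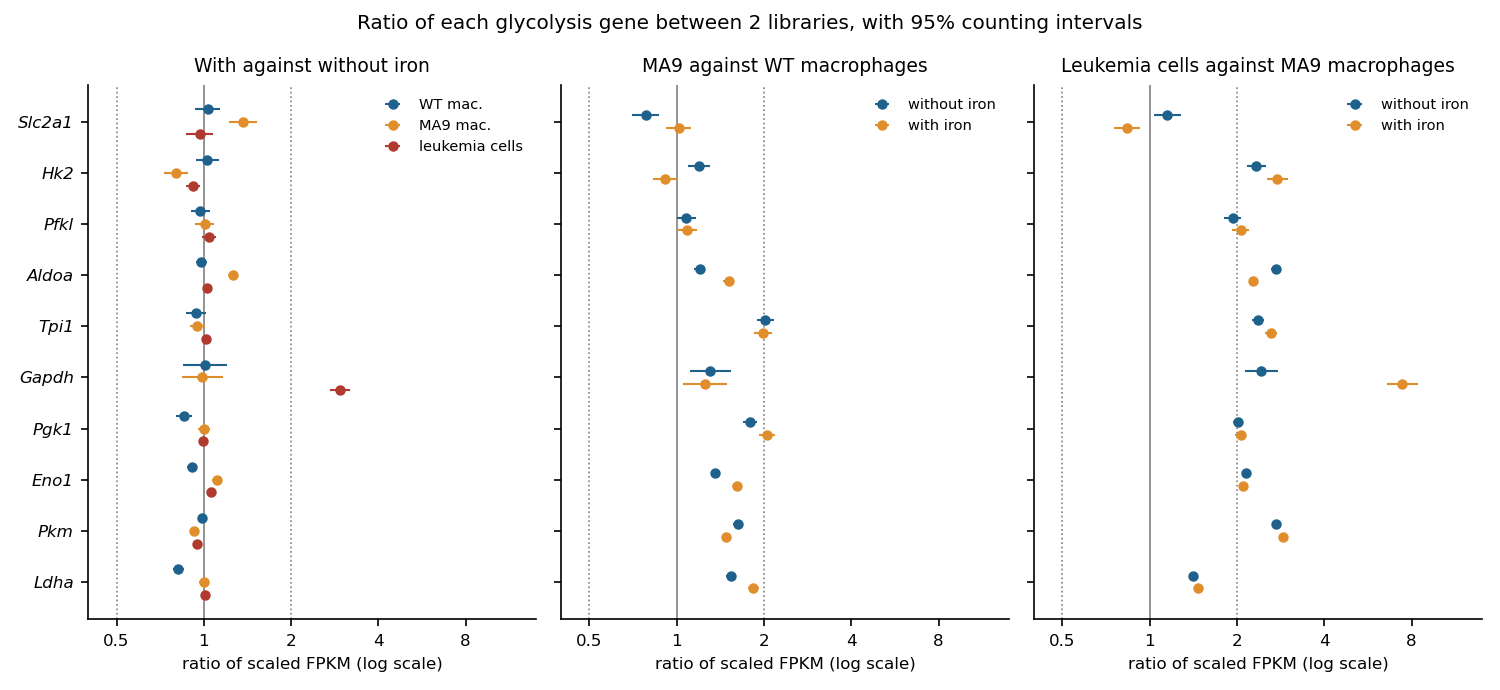
Ratio of scaled FPKM between 2 libraries for each of the 10 genes (horizontal axis, log scale), with bars for the 95% interval of counting error only. Iron ratios lie near 1 except Gapdh in leukemia cells (2.95), later enzymes lie above 1 in MA9 against WT macrophages, and 7 genes exceed 2 in leukemia cells against macrophages in both pairs, with Pfkl at 1.93 and 2.06.

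Most steps can be carried by several genes, and the 10 genes are not always the main ones. Hk2 held 34.0% of the summed hexokinase FPKM in WT macrophages (31.1% with iron) and 22.6% in MA9 macrophages (23.5% with iron), but 7.16% in leukemia cells (7.09% with iron). Hk3, a hexokinase known from myeloid cells, was at 8.36 FPKM in WT macrophages (12.3 with iron), 19.4 in MA9 macrophages (16.3 with iron) and 299.7 in leukemia cells (281.9 with iron). It was the main hexokinase transcript of the leukemia cells, with 86.8% of the step (87.7% with iron), and was 15.1-fold (14.3 to 16.04) higher there than in MA9 macrophages without iron and 16.9-fold (15.9 to 18.1) with iron. Hk2 itself was higher in the leukemia cells as well, so its smaller share goes with the larger difference of Hk3.

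In the enolase step it was the gene among the 10 that made up most of the leukemia cell transcript. Eno3, the enolase known from muscle, was at 55.1 FPKM in WT macrophages (50.7 with iron), 51.3 in MA9 macrophages (49.8 with iron) and 7.22 in leukemia cells (8.95 with iron). Eno1 held 46.7% of the enolase FPKM in WT macrophages (46.1% with iron), 54.7% in MA9 macrophages (58.2% with iron) and 89.2% in leukemia cells (88.8% with iron). Eno1b, a copy with 99.4% identity to the Eno1 coding part, held at most 6.65%, and reads that fit both genes cannot be assigned with confidence. Slc2a1 held between 22.8% and 32.3% of the FPKM of 5 glucose transporter genes, whereas Slc2a6 made up 51.2% in leukemia cells (51.5% with iron). Slc2a3 (GLUT3) was at 15.0 FPKM in WT macrophages (13.7 with iron), 10.7 in MA9 macrophages (10.5 with iron) and 3.44 in leukemia cells (3.99 with iron). Pfkl held between 42.6% and 59.1% of the phosphofructokinase FPKM, and Aldoa at least 97.5% of that of Aldoa and Aldoc.

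**Figure D4:**
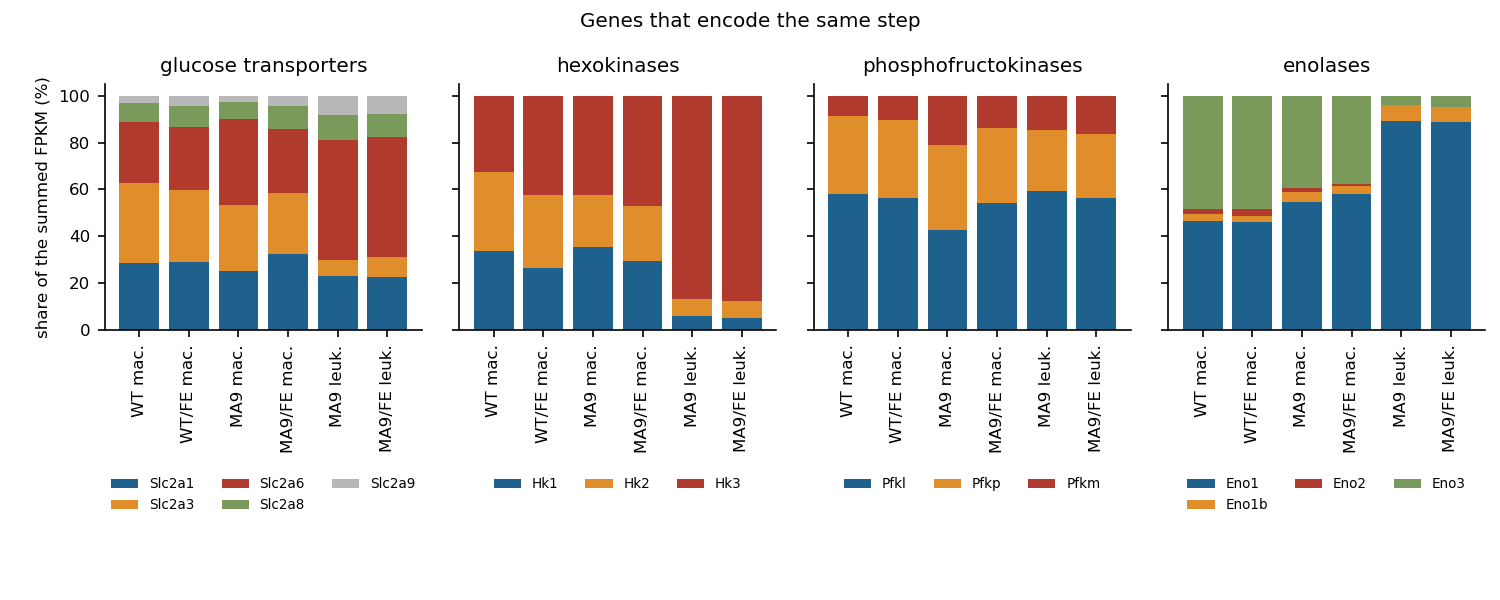
Share of each gene in the summed FPKM of the genes that encode the same step (vertical axis, %), for glucose transporters, hexokinases, phosphofructokinases and enolases in the 6 libraries. Hk3 makes up 86.8% and 87.7% of hexokinase in the leukemia cells, and Eno1 rather than Eno3 makes up 89.2% and 88.8% of enolase there.

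Pkm was nearly the only pyruvate kinase transcript, and its lowest share was 90.8%, in MA9 macrophages. There Pklr, the liver and red cell pyruvate kinase, was at 10.6 FPKM (3.84 with iron), against 1.23 in WT macrophages (1.23 with iron) and 0.0851 in leukemia cells (0.138 with iron). In MA9 against WT macrophages 10 of 12 erythroid markers were past 2-fold higher (9 with iron), and their part in the Pklr values was not tested. Ldha held at least 97.5% of the lactate dehydrogenase FPKM in every library. Its partner Ldhb, whose enzyme favours the return of lactate to pyruvate, was at 1.96 FPKM in WT macrophages (0.758 with iron), 2.40 in MA9 macrophages (1.505 with iron) and 3.75 in leukemia cells (1.46 with iron), from 60, 20, 64, 38, 107 and 41 reads in that order. Ldhb was lower with iron in all 3 pairs, by 2.59-fold (1.54 to 4.54) in WT macrophages, 1.55-fold (1.02 to 2.39) in MA9 macrophages and 2.57-fold (1.78 to 3.78) in leukemia cells, although it stayed under the limit in log2(FPKM + 1). The ratio of Ldha to Ldhb was accordingly 2.12, 1.55 and 2.59 times as high with iron. Ldhb was singled out after its values were seen, and limma called no gene for iron.

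Other genes of the pathway showed where leukemia cells and macrophages differed beyond the 10. Among 14 measured genes of other steps and isoforms, 3 were past 2-fold higher (Hk3, Pgam1 and Gpi1) and 3 lower (Eno2, Eno3 and Pklr) in leukemia cells than in MA9 macrophages without iron, and 5 of 15 were higher and 3 lower with iron. The shares of all genes were those given above, 7.41% higher and 12.7% lower without and 9.58% higher and 13.3% lower with iron. They are the background of the 2-fold counts of leukemia cells against macrophages in each list that follows. Pgam1, phosphoglycerate mutase between Pgk1 and Eno1, was at 53.5 FPKM in MA9 macrophages (45.5 with iron) and 279.0 in leukemia cells (280.0 with iron), 5.10-fold and 6.03-fold higher. Gpi1, glucose-6-phosphate isomerase between hexokinase and phosphofructokinase, was at 50.7 FPKM in MA9 macrophages (55.3 with iron) and 157.9 in leukemia cells (142.5 with iron), 3.05-fold and 2.53-fold higher. Pgam1 and Gpi1 thus differed in the direction of the 7 genes past 2-fold. In limma 6 of these 14 genes were called higher and 3 lower in leukemia cells, against 20.6% of 16994 genes called higher and 3937 called lower. Between MA9 and WT macrophages limma called 0 of the 14, against 1.2% of all genes.

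Among the transporters of lactate, Slc16a3 (MCT4, an exporter known as a HIF-1 target) was at 4.21 FPKM in MA9 macrophages (3.24 with iron) and 20.1 in leukemia cells (19.3 with iron), 4.66-fold and 5.84-fold higher. Slc16a1 (MCT1) was at 2.80 FPKM in WT macrophages (2.77 with iron), 11.4 in MA9 macrophages (6.45 with iron) and 11.7 in leukemia cells (9.88 with iron), so that MA9 macrophages were 4.12-fold above WT without iron and 2.36-fold, just under the limit in log2(FPKM + 1), with iron. The pentose phosphate pathway, which leaves glycolysis after the hexokinase step and makes NADPH and ribose, had 4 of 8 genes past 2-fold higher in leukemia cells in each pair and 0 lower. Pgd was 6.44-fold higher without and 5.95-fold with iron, G6pdx 2.88-fold and 3.38-fold, H6pd 3.17-fold and 4.32-fold, and Tkt 2.57-fold and 2.74-fold. Of the next steps, 0 of 16 genes of the TCA cycle, which oxidises pyruvate carbon in the mitochondrion, and 0 of 7 genes of pyruvate entry were past 2-fold in either pair. Their median log2 differences were 0.23 and 0.30 (TCA cycle) and 0.27 and 0.19 (pyruvate entry), without and with iron. In limma, 6 of 8 pentose phosphate genes were called higher in leukemia cells, and of 16 TCA cycle genes 4 were called higher and 1 lower, against 20.6% of all genes called higher and 43.8% in either direction.

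Regulators of the pathway did not share one direction. Of 21 measured regulators, 2 were past 2-fold higher (Egln3 and Tigar) and 2 lower (Txnip and Pfkfb3) in leukemia cells than in MA9 macrophages without iron, and of 22 with iron 2 were higher and 1 (Txnip) lower, counts that do not set the list apart from all genes. Egln3, a prolyl hydroxylase that marks HIF for decay and is itself a HIF target, was at 1.24 FPKM in MA9 macrophages (0.817 with iron) and 19.9 in leukemia cells (21.7 with iron), 15.7-fold and 26.0-fold higher. Tigar, which lowers a fructose bisphosphate that activates phosphofructokinase, was 2.68-fold and 2.26-fold higher. Txnip, an inhibitor of glucose uptake, was at 88.0 FPKM in MA9 macrophages (142.4 with iron) and 41.3 in leukemia cells (43.3 with iron), and Pfkfb3, which activates phosphofructokinase, was at 36.1 FPKM in MA9 macrophages (19.0 with iron) and 15.0 in leukemia cells (13.7 with iron).

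Of 17 measured hypoxia response genes outside the 10, 5 were past 2-fold higher and 3 lower in leukemia cells than in MA9 macrophages without iron, and 6 and 3 with iron. The list as a whole did not share one direction. Its median log2 difference was 0.29 without and 0.02 with iron, with 11 genes above 0 and 6 below without iron, and 9 above and 8 below with iron. Vegfa, the vascular growth factor, was 5.83-fold and 6.06-fold higher, Ero1l, an oxidase of the endoplasmic reticulum, 3.70-fold and 5.50-fold, and Mxi1, a Myc antagonist, 3.55-fold and 3.85-fold. Ddit4, an inhibitor of mTOR signalling, was at 89.3 FPKM in WT macrophages (181.0 with iron), 41.0 in MA9 macrophages (64.5 with iron) and 8.79 in leukemia cells (11.3 with iron). It was the one hypoxia gene past 2-fold between WT macrophages with and without iron. Mif, a cytokine gene, was at 81.2 FPKM in WT macrophages (64.1 with iron) and 145.5 in MA9 macrophages (150.9 with iron), 1.81-fold and 2.39-fold higher, and was past 2-fold in the pair with iron only. Egln3 and Pfkfb3 are on both lists and count under both.

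Finally, the genes with the pattern most like the mean of the 10 were looked for among 973 genes at 10 FPKM or more in every library and with a range of at least 1 on the log2 scale. In log2(FPKM + 1), the mean of the 10 genes centred on the 6 libraries was -0.63 in WT macrophages (-0.69 with iron), -0.23 in MA9 macrophages (-0.22 with iron) and 0.81 in leukemia cells (0.95 with iron). Srp68, of the signal recognition particle, was closest with a root mean square difference of 0.06. It was followed by Rrs1, a ribosome assembly factor, and by Dtymk, Cdt1 and Pkmyt1, which serve nucleotide synthesis, replication licensing and control of entry into mitosis, with differences of at most 0.07. Of the 10 genes Eno1 was nearest to the mean (0.06), and Slc2a1 (0.72) and Gapdh (0.52) were farthest from it. With 6 libraries that fall into 3 kinds of cell, many genes share such a pattern.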

How the data were processed

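RNA-seq of 6 libraries was analysed. The submitters' processing notes name mm10, Bowtie2 2.2.5 and RSEM with no order, and gene values were deposited by the authors as FPKM. FPKM times exon length in GENCODE M21 (54495 genes) gave whole reads within 0.05 for 96.8% to 97.0% of values, although RSEM makes estimated counts. These reads served for filters, shares and intervals. The handling of reads with several matches and the strand setting are not given in the sources used here.

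Each pair was scaled by TMM, and differences were taken in log2(FPKM + 1), which understates changes of low genes. Intervals are exact binomial (ratios) or Wilson (shares) at 95% and cover counting error only. limma 3.58.1 (R 4.3.3, trended variance, Benjamini-Hochberg over all genes with at least 10 reads in 2 libraries) fitted iron and cell state. Copies were found with blastn 2.17.0. Python 3.11.15, pandas 2.3.3 and numpy 2.4.6 were used, and the steps were tested on simulated data.

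All 10 genes were described. From other pathway lists, genes past 2-fold with at least 10 FPKM in one library were eligible to be named, besides isoforms, reference genes and the 5 genes of most similar pattern. Iffo1, Gm49759, Eno2 and Ldhb were named after their values were seen. The members and lists were chosen with earlier results of these data known. Alternatives were other scalings, pseudocounts of 0.1 or none, a minimum of 0 or 50 reads, removal of the trend on exon length, a fold of 1.5, leaving out pairs and leaving out Gapdh. No pseudocount and the omission of Gapdh were chosen after seeing the data.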

Additional observations from a re-analysis of the deposited data

Results flagged for a closer look

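For 2 of the 10 genes, differences lay outside counting error in opposite directions. With against without iron, Eno1 was 0.908-fold (0.873 to 0.945) in WT macrophages, but 1.11-fold (1.07 to 1.15) in MA9 macrophages and 1.05-fold (1.03 to 1.08) in leukemia cells. Relative to Actb, Eno1 was 1.09, 0.867 and 1.09 times as high with iron in these pairs. Its directions in the macrophages therefore depended on the scaling, and Actb itself was 0.836-fold in WT and 1.28-fold in MA9 macrophages. Slc2a1 was 1.15-fold (1.03 to 1.29) in leukemia cells against MA9 macrophages without iron and 0.836-fold (0.753 to 0.929) with iron. With 1 library for each condition these differences were not tested.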

How the results depend on the processing

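No paired analysis was possible because each condition has 1 library and the labels number all of them 1, so that replicate numbers pair nothing. The limma fit pairs libraries by cell state. Between leukemia cells and MA9 macrophages, 6 to 8 of the 10 genes were past 2-fold over all settings, and for iron in macrophages 0 were in each setting. Without Gapdh, 0 genes were past 2-fold between the leukemia libraries. For MA9 against WT macrophages without iron, 1 gene was past 2-fold with a pseudocount of 0.1, with none or with the length trend removed, and 4 at a fold of 1.5. With iron, 0 (Pgk1 no longer) were with FPKM as deposited, median of ratios or the length trend removed, and 5 at a fold of 1.5. In limma, Tpi1 was not called for MA9 against WT macrophages with no minimum of reads (0 genes, and 1 of all genes in place of 204) or without the leukemia cell pair (0 genes, and 73 of all genes), with an adjusted p between 0.037 and 0.16 over the settings. For leukemia cells limma called 8 to 9 genes when a macrophage pair was left out (without MA9 macrophages the contrast is with WT macrophages) and 7 with no minimum, where Gapdh and Ldha were not called. The share of reads on the 10 genes, with mitochondrial genes left out of the total, was 0.149% in WT macrophages, 0.213% in MA9 macrophages (0.215% with iron) and 0.483% in leukemia cells (0.492% with iron). With hemoglobin and immunoglobulin genes left out it was 0.151% in WT macrophages (0.142% with iron) and 0.223% in MA9 macrophages (0.228% with iron). With no pseudocount, genes past 2-fold among all genes were 1207, 2066 and 1000 for iron (in place of 205, 398 and 124 in WT macrophages, MA9 macrophages and leukemia cells), 2506 and 2613 for MA9 against WT macrophages (789 and 749), and 6286 and 6942 for leukemia cells against macrophages (3395 and 3816). Sign changes (10 of 623 values) were limited to differences of at most 0.03 in log2. The lowest count of the 10 genes was 247 reads, and the precision is limited by the single library of each condition.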
